A study of Pan troglodytes with 38 samples.

Results

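The genes described here are the proteasome genes of the chimpanzee heart, taken as every gene of the count table whose symbol begins with PSMA, PSMB, PSMC, PSMD, PSME, PSMF or PSMG. The rule found 49 of the 31373 genes of the table. They comprise 31 constitutive subunits, 5 immunoproteasome genes (PSMB8, PSMB9, PSMB10, PSME1 and PSME2), 7 assembly factors (PSMG1, PSMG2, PSMG3, PSMG4, PSMD5, PSMD9 and PSMD10), 3 other activators or inhibitors (PSME3, PSME4 and PSMF1) and the testis subunit PSMA8. The prefix also takes in PSMC3IP and PSME3IP1, which are named after a proteasome partner and are not subunits. RNA with poly(A) tails was sequenced from frozen post-mortem heart tissue of 38 chimpanzees (Pan troglodytes), which the labels place in 1 group with no treatment, sex, age or genotype. The animals were born in captivity, and a partial pedigree held close relatives, so they are not fully independent. The paper reports that some of its chimpanzees came from laboratories and had been exposed to hepatitis B or C virus. That status was not used here, and its part in the values was not tested. The study asked how far expression varies between individuals, so the values are compared here across animals. The RNA was extracted in 2016 for 17 animals and in 2018 for 21 animals, and this extraction year is carried through as a technical batch.

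The proteasome is the main protease of the cytosol and nucleus and cuts proteins that carry ubiquitin chains into short peptides. Its barrel-shaped core has outer rings of α subunits, which form the gate, and inner rings of β subunits, 3 of which are proteolytic. The regulatory particle that caps the core binds ubiquitin, removes it and unfolds the substrate with a ring of ATPases. Cells exposed to interferon-gamma make the immunoproteasome, in which PSMB9, PSMB10 and PSMB8 take the places of PSMB6, PSMB7 and PSMB5, and the activator PA28 (PSME1 and PSME2) can bind in place of the regulatory particle. This form is abundant in immune cells and favours peptides that fit the groove of MHC class I. In heart muscle the proteasome turns over contractile proteins together with muscle ubiquitin ligases such as FBXO32 and TRIM63.

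The libraries held 43892814 to 132478050 gene counts. The share of these counts on 13 mitochondrial genes ran from 17.2% to 60.1%, so levels are given in CPM (counts scaled to a common library size), with that size scaled by the trimmed mean of M values (TMM). Library sizes so scaled cannot show a change shared by most genes. Summed over 10 cardiomyocyte markers, the level ran from 6328 CPM in Little_R to 92991 CPM in 456, with a median of 58040 CPM and the median of each of the 10 markers was above 1 CPM. Little_R and 537 stood apart in the whole profile, with median correlations to the other animals of 0.711 and 0.789 against 0.934 for the middle animal. Results that rest on them are given with and without them.

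The catalytic immunoproteasome subunits PSMB8 and PSMB9 had the widest range of the 49 genes apart from PSMA8. PSMB8, which replaces PSMB5, had a lowest value of 11.5 CPM in 554, a median of 23.9 CPM and a highest value of 124 CPM in 537. PSMB9, which replaces PSMB6, ran from 2.77 CPM in 554 through a median of 7.60 CPM to 42.2 CPM in 537. Both genes were highest in the same 3 animals, 537, 4X0354 and 558, where PSMB8 stood at 124, 124 and 66.4 CPM and PSMB9 at 42.2, 35.9 and 29.2 CPM. The highest value was 10.8 times the lowest for PSMB8 and 15.3 times the lowest for PSMB9. The coefficient of variation over the 38 animals was 76.6% for PSMB8 and 81.8% for PSMB9, beside a median of 34.2% over the 11752 genes that reached 6 CPM in at least 1 animal. In tissue RNA, fewer cells of a type and less RNA per cell cannot be told apart, and this holds for each level and ratio given here.

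The other immunoproteasome genes varied less. PSMB10, which replaces PSMB7, ran from 30.3 CPM in Little_R through a median of 52.9 CPM to 148 CPM in 4X0354, and the next animals were 558 at 99.2 CPM and 537 at 94.7 CPM. PSME1, the α subunit of PA28, ran from 41.9 to 152 CPM with a median of 64.1 CPM, and its highest animal was 338 rather than any of these 3. PSME2, the β subunit of PA28, ran from 20.2 to 99.1 CPM with a median of 30.2 CPM and was highest in 4X0354, 537 and 338. The medians of the 2 extraction years lay close together for each of the 5 genes, for example at 23.9 CPM for 2016 and 24.1 CPM for 2018 for PSMB8. Levels of different genes are not ranked against each other, because counts were not divided by transcript length.

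**Figure D1:**
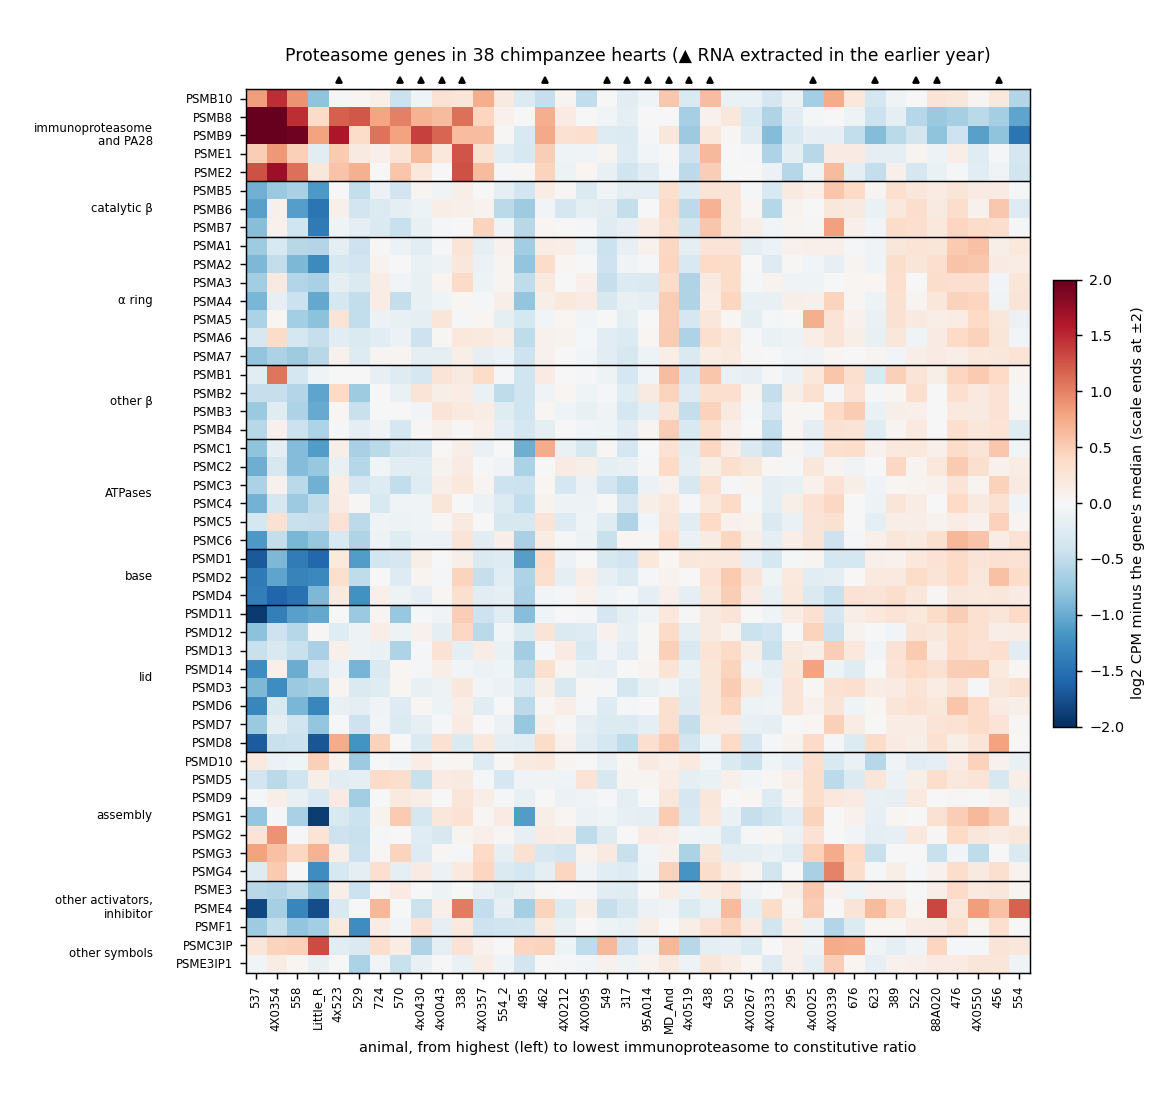
Heat map of 48 proteasome genes (rows, in groups by role) in 38 animals (columns, ordered from the highest to the lowest immunoproteasome to constitutive ratio), as log2 CPM minus the median of each gene. Triangles mark the animals extracted in the earlier year. PSMB8 and PSMB9 are highest in 537, 4X0354 and 558 on the left, where many constitutive subunits are below their medians, and PSMA8 is left out because 11 animals had no count.

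The 31 constitutive subunits varied over a narrower range. The catalytic subunit PSMB5 ran from 46.2 CPM in Little_R through a median of 102 CPM to 150 CPM in 4X0339. PSMB6 ran from 31.8 through 88.0 to 143 CPM, and PSMB7 from 38.8 through 104 to 184 CPM, with Little_R lowest for both. Among the α subunits, PSMA7 had the smallest coefficient of variation, 16.5%, with values from 80.8 to 170 CPM. The coefficients of the 31 genes ran from 16.5% to 31.4%, with a median of 21.9%, and the highest belonged to the lid subunit PSMD8. Of the 31 subunits, 13 were lowest in Little_R and 12 were lowest in 537, while the highest values were spread over 14 animals.

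The spread of a gene was also measured by a negative binomial fit, the kind of model the study used on orthologous exon counts and here applied to gene counts with TMM library sizes. Its overdispersion was compared with the trend over mean expression, so that a gene above 0 varied more between animals than genes of like expression. This residual, called dispersion here, was below 0 for 28 of 31 constitutive subunits, with a median of −0.61 and a jackknife standard error of 0.0972 over animals. Over all 11752 genes fitted, 55.4% lay below 0 and the median was −0.13. The 7 α subunits and the 7 assembly factors were below 0 without exception, with medians of −0.83 and −1.07. The 3 base subunits PSMD1, PSMD2 and PSMD4 had a median of 0.13 with a jackknife SE of 0.250, and it was −0.34 with orthologous exon totals, −0.42 without 537, Little_R, 558 and 4X0354 and −0.91 in 2016. PSMD9, a chaperone of base assembly, had the lowest dispersion of the 48 members fitted, −1.93 ± 0.353 (jackknife SE, n = 38). The median of the constitutive subunits moved to −1.14 with the library size taken from orthologous exons and to −0.38 with the plain total, and it stayed below the median of all genes with each.

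PSMB8 and PSMB9 stood at the other end, with dispersions of 1.32 ± 0.294 and 1.29 ± 0.277 (jackknife SE, n = 38), above 92.5% and 92.1% of all genes fitted. PSME2 followed at 0.48 ± 0.307 and PSMB10 at 0.17 ± 0.285, and PSME1 had −0.25 ± 0.371, all 3 within 2 standard errors of 0. PSME4, an activator known from spermatogenesis and DNA repair, was the only other member above 0.3, at 0.62 ± 0.196. PSME4 was lowest in 537, Little_R and 558, at 27.2, 28.2 and 38.9 CPM, around a median of 96.1 CPM, and highest in 88A020 at 244 CPM. Leaving out 1 animal at a time kept PSMB8 between 1.15 and 1.47 and PSMB9 between 1.12 and 1.42. Without 537, Little_R, 558 and 4X0354, PSMB8 was at 0.94 and PSMB9 at 0.89.

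**Figure D2:**
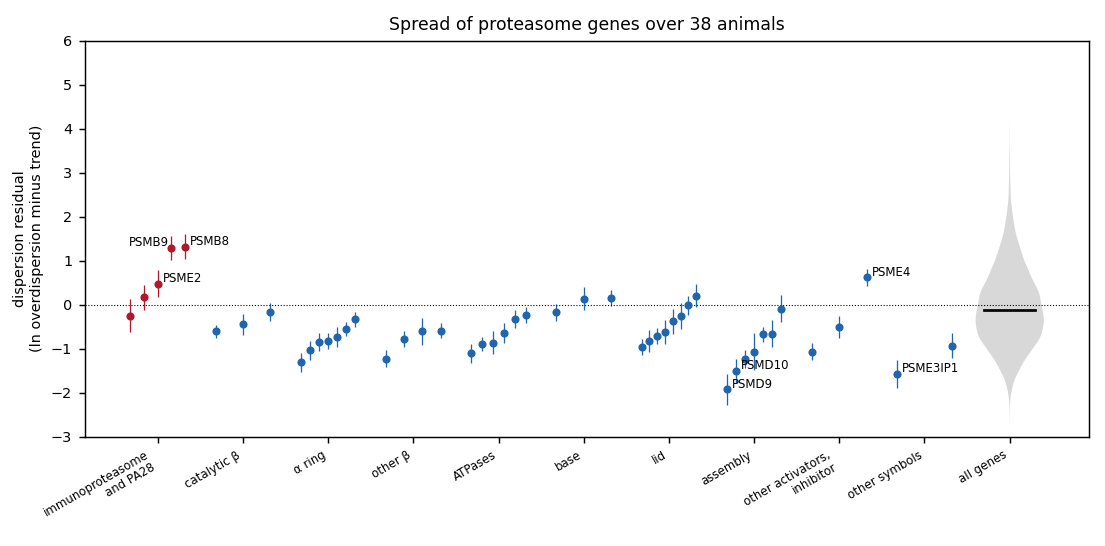
Dispersion residual (vertical axis, natural log) of 48 proteasome genes grouped by role, with jackknife standard errors over 38 animals as bars, and the distribution over all 11752 genes in grey with its median as a line. PSMB8 and PSMB9 lie above 1, while 28 of 31 constitutive subunits lie below 0.

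The constitutive subunits varied together from animal to animal. With log2 CPM centred on each extraction year, the median Pearson correlation over the 465 pairs of constitutive subunits was 0.73, and 91.8% of the pairs were at 0.5 or above. Over all 77258665 pairs of the 12431 genes at 1 CPM in at least 19 animals, the median was 0.011 and 9.77% of pairs reached 0.5. These correlations are across the same 38 libraries and share their scaling and cell makeup, so they are given as a description. Against the mean of the other constitutive subunits, 29 of 31 had a correlation of at least 0.7, and PSMB1 at 0.53 and PSMD12 at 0.57 were the exceptions. PSMB1 was highest in 4X0354, at 164 CPM, where PSMD3 and PSMD4 were at their lowest.

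The immunoproteasome genes formed a group of their own. Among their 10 pairs the median correlation was 0.73, from 0.48 to 0.94, and between them and the 31 constitutive subunits it was −0.28. PSMB8 had a correlation of −0.53 and PSMB9 one of −0.52 with the constitutive level, and without 537, Little_R, 558 and 4X0354 these were −0.35 and −0.25. In 2018 they were −0.66 and −0.67, while in 2016 PSMB8 had −0.12, PSMB9 had −0.064, PSME1 had 0.22 and PSME2 had 0.24. PSMB10 differed from its partners. Its correlation with the mean of PSMB8 and PSMB9 was 0.67 among the animals of 2018 and 0.00064 among those of 2016, where its correlation with the constitutive level was 0.55. Without 537, Little_R, 558 and 4X0354 its correlation was 0.21 with that mean and 0.28 with the constitutive level. The difference between the years was not tested.

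Assembly factors followed the constitutive subunits less closely than these followed each other. Their median correlation with the 31 subunits was 0.26, and 25.8% of the pairs were at 0.5 or above. Within the constitutive subunits these values were 0.73 and 91.8%, and over all gene pairs 0.011 and 9.77%. PSMG1, a chaperone of the α ring, followed the constitutive level at 0.78, PSMG4 at 0.61, PSMD9 at 0.47 and PSMD5 at 0.30. PSMG3 had −0.33, PSMD10 had −0.14 and PSMG2 had 0.014, but without 537, Little_R, 558 and 4X0354 these were 0.026, 0.13 and 0.35. PSMG1 was lowest in Little_R at 4.73 CPM around a median of 17.6 CPM, whereas PSMG3 was highest in 537 at 15.7 CPM around a median of 9.0 CPM. PSMA8, the α subunit of the testis proteasome, had a median of 2.5 counts and at most 46 counts in an animal, and 11 animals had none, so it was at the limit of detection at this depth.

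The genes most like each branch were taken from the 12383 genes that are no members, by the correlation of year-centred log2 CPM. The 5 most like the mean of PSMB8, PSMB9 and PSMB10 were HLA-DMB (r = 0.88), TAP1 (0.88), HLA-DQB1 (0.88), NLRC5 (0.86) and GBP1 (0.86). TAP1 is a subunit of the transporter that carries peptides to MHC class I, NLRC5 is a transactivator of MHC class I genes and GBP1 is an interferon-induced GTPase. HLA-DMB and HLA-DQB1 are MHC class II genes, members of families whose reads can be shared between near-identical copies. TAP1 ran from 11.6 to 183 CPM. In a RefSeq annotation of the assembly NHGRI_mPanTro3-v2.0_pri, TAP1 lies between PSMB8 and PSMB9, and since the library kit keeps no strand, reads of overlapping neighbours cannot be told apart. The 5 genes most like the constitutive level were TIMM23 (0.94), NDUFAF1 (0.92), DTD1 (0.92), MRPS23 (0.92) and YWHAE (0.91), of which TIMM23, NDUFAF1 and MRPS23 encode mitochondrial import, complex I assembly and mitochondrial ribosome proteins.

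RNA of the catalytic subunits that replace each other was compared within a library, which does not depend on library size. Such a comparison does not show which subunits the proteasomes held. The mean log2 CPM of PSMB5, PSMB6 and PSMB7 was subtracted from that of PSMB8, PSMB9 and PSMB10. This log2 ratio had a lowest value of −3.12 in 554, a median of −2.18 and a highest value of 0.66 in 537, a 13.8-fold range. After 537 came 4X0354 at 0.013, 558 at −0.043 and Little_R at −0.73, all extracted in 2018, and the other 34 animals lay at −1.28 or below. Taken pair by pair, PSMB9 over PSMB6 spanned 30.2-fold, PSMB8 over PSMB5 spanned 20.7-fold and PSMB10 over PSMB7 spanned 5.30-fold between the extreme animals. The ratio of PSMB8 to PSMB5 and that of PSMB9 to PSMB6 moved together in both extraction years (r = 0.92 and 0.94), while that of PSMB10 to PSMB7 moved with PSMB8 to PSMB5 at 0.92 in 2018 and 0.25 in 2016.

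The ratio moved with a list of 12 genes known to respond to interferon-gamma (among them IRF1, GBP1, GBP2, GBP4, GBP5, CXCL9, CXCL10, CXCL11, IDO1, WARS1 and CIITA), none of them a member. The mean log2 CPM of that list ran from 0.96 in 554 to 5.71 in 537, the same animals as at the ends of the ratio. Pearson's r between list and ratio was 0.87 and Spearman's rho 0.86 over 38 animals, and within the extraction years r was 0.91 for 2016 and 0.93 for 2018. It was 0.88 without 537, Little_R, 558 and 4X0354, and 0.82 without the 2 animals farthest from the median of the list. Little_R had the fourth highest ratio at a list mean of 3.12, which ranked 14 of 38, and its PSMB5 level of 46.2 CPM was the lowest of all. The relation is one of 11 computed for the ratio, and as a score over members it is given with no p-value. Another was log2 total count, with r of −0.50 over 38 animals, −0.27 for 2016 and −0.59 for 2018. The part of library depth in the ratio was not tested.

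Lists of immune cell markers were also set beside the ratio. For 13 genes of the type I interferon response r was 0.48, and it was 0.37 for 12 T and NK cell markers, 0.32 for 6 B and plasma cell markers, 0.21 for 11 macrophage markers and 0.051 for 4 neutrophil markers. The T and NK markers were low throughout, with a summed level of 3.86 to 211.97 CPM, and CD2, CD3D, CD3E, CD3G and GZMK had medians under 1 CPM. Within the extraction years r with the T and NK list was 0.61 for 2016 and 0.33 for 2018, and with the macrophage list it was 0.42 and 0.39. Without 537, Little_R, 558 and 4X0354, r was 0.54 for the T and NK list, 0.44 for the macrophage list, 0.43 for the B and plasma list and 0.30 for the neutrophil list. Endothelial and fibroblast lists had r of 0.60 and 0.48, which were 0.21 and 0.30 without 537, Little_R, 558 and 4X0354. Against the cardiomyocyte list r was −0.69, and it was −0.53 for 2016 and −0.71 for 2018. Whether these cell types had a part in the ratio was not tested.

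**Figure D3:**
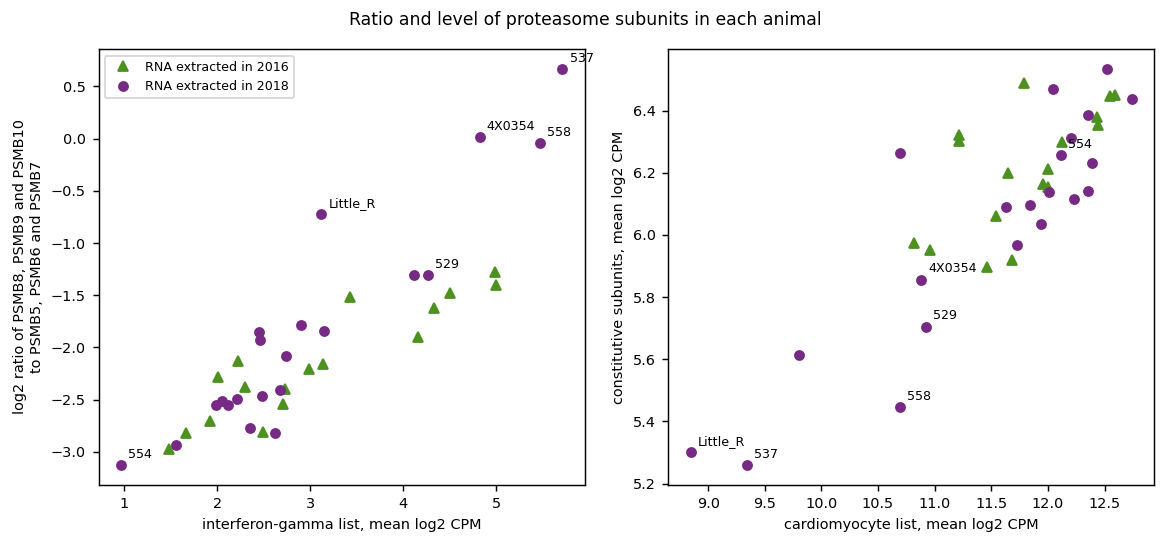
Left, log2 ratio of PSMB8, PSMB9 and PSMB10 to PSMB5, PSMB6 and PSMB7 against the mean log2 CPM of the interferon-gamma list; right, mean log2 CPM of the 31 constitutive subunits against that of 10 cardiomyocyte markers. Each point is 1 of 38 animals, with triangles for RNA extracted in 2016 and circles for 2018, and r is 0.87 on the left and 0.84 on the right.

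Each gene was then tested along the interferon-gamma list in 1 model across 16581 genes, with extraction year as a term (edgeR quasi-likelihood test, Benjamini-Hochberg adjustment over all of them). Members and list were chosen with results of these data known, so the p-values are no independent evidence. Per standard deviation of the list, which was 1.19 on the log2 scale, 4 of 49 proteasome genes were higher at an adjusted p under 0.05, all of them immunoproteasome genes, where 12.9% of all genes tested were called higher and 25.7% in either direction. PSMB9 rose by 0.85 ± 0.0623 on the log2 scale (SE) with an adjusted p of 3.65e-13, and PSMB8 rose by 0.75 ± 0.0504 with an adjusted p of 4.45e-14. PSME2 rose by 0.41 ± 0.0557 (adjusted p = 1.65e-06) and PSME1 by 0.27 ± 0.0493 (adjusted p = 0.000409). PSMB10 had 0.16 ± 0.0718 and an adjusted p of 0.0814, and so was not called. In the same test 12 of 12 T and NK cell markers, 7 of 11 macrophage markers and 4 of 7 fibroblast markers were higher, and 5 of 10 cardiomyocyte markers were lower, and the part of these cells in the members' values was not tested. The value of PSMB10 was 0.34 ± 0.0946 (adjusted p = 0.0211) in the 21 animals of 2018 and −0.10 ± 0.0858 (adjusted p = 0.657) in the 17 animals of 2016, and the difference between the years was not tested.

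The calls of PSMB8, PSMB9, PSME1 and PSME2 held with plain totals, with DESeq2, with the mitochondrial share as a term, with the cardiomyocyte list as a term and without 537, Little_R, 558 and 4X0354. Without those 4 animals PSMB8 rose by 0.55 ± 0.0467 and PSMB9 by 0.64 ± 0.0681 per standard deviation of the list in the animals left. In the animals of 2016 alone, PSMB8 (0.60 ± 0.0635) and PSMB9 (0.70 ± 0.0971) were called, and PSME2 and PSME1 had adjusted p of 0.0679 and 0.134. Of 9 other genes of antigen processing, 7 rose along the list, among them TAP1 by 0.93 ± 0.0458, NLRC5 by 0.95 ± 0.0662 and TAP2 by 0.75 ± 0.0518. ERAP1, a peptide-trimming enzyme of the endoplasmic reticulum, had 0.040 ± 0.0587.

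On the other side, 22 of 49 proteasome genes were lower along the list, or 44.9%, where 12.9% of all genes tested were called lower. They included 20 of the 31 constitutive subunits, and all 31 had a negative value with a median of −0.17, beside a median of −0.0012 over all genes. The 5 with the smallest p were PSMD11 (fell by 0.31 ± 0.0677), PSMC2 (fell by 0.21 ± 0.0483), PSMC6 (fell by 0.23 ± 0.0556), PSMB5 (fell by 0.20 ± 0.0519) and PSMD1 (fell by 0.27 ± 0.0680), with adjusted p from 0.0026 to 0.00841. PSMD11 is a lid subunit, PSMC2 and PSMC6 are ATPases of the base, and PSMD1 is its scaffold. No member of the other β group (PSMB1 to PSMB4) and no assembly factor was called in either direction. PSME4 fell by 0.32 ± 0.0947 and PSME3 by 0.12 ± 0.0409.

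The calls of lower members rested on few animals. Without 537 alone, 5 of the 22 were called, where 1.53% of all genes were called lower. Without 558 alone 14 were, where 5.73% of all genes were called lower. The count was 0 without 537, Little_R, 558 and 4X0354, where 19 genes of 16392 tested were called lower. It was also 0 with plain library totals, with the cardiomyocyte list as a term and in the animals of 2016 alone. Lower calls over all genes were 0.56%, 0.052% and 0.057% in those fits. At an unadjusted p under 0.05 the members lower numbered 7 without the 4 animals, and 16, 9 and 1 in those fits. The medians of the constitutive subunits in these 4 fits were −0.086, −0.14, −0.058 and −0.066, and 31, 31, 29 and 31 of the 31 were below 0. Without 537 alone and without 558 alone all 31 were also below 0, with medians of −0.13 and −0.14. In the animals of 2018 alone, 21 members were lower, 20 of them among the 22, where 11.2% of all genes were called lower. The 4 animals had cardiomyocyte lists ranked 32 or lower of 38 and mitochondrial shares of 42.99% to 60.1%. In total count Little_R, 4X0354 and 558 ranked 38, 37 and 36 of 38, and 537 ranked 21. The part of these measures in the members' values was not tested.

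**Figure D4:**
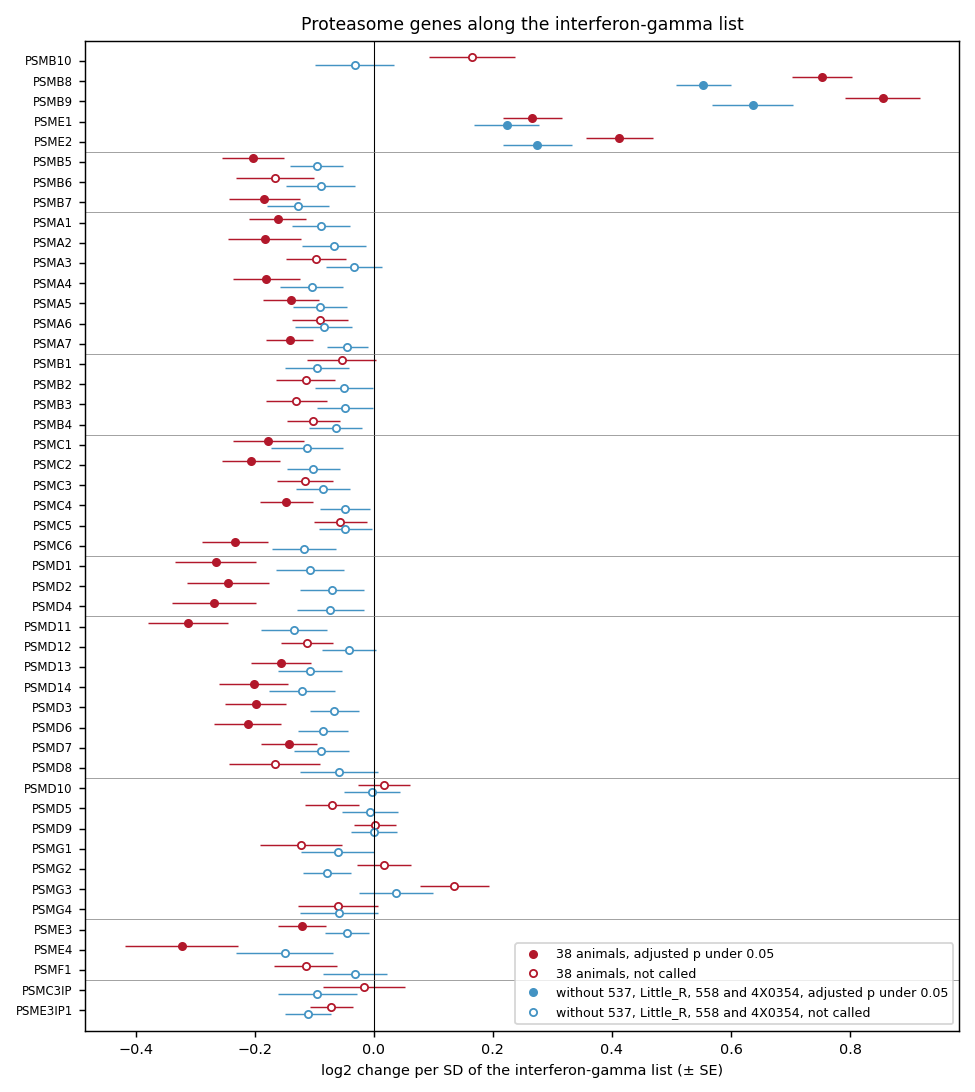
Log2 change per standard deviation of the interferon-gamma list (horizontal axis, bars ± SE) of 48 proteasome genes in all 38 animals (red) and without 537, Little_R, 558 and 4X0354 (blue), with filled points for an adjusted p under 0.05. PSMB8, PSMB9, PSME1 and PSME2 are called in both fits, while the 22 genes lower in the first are not called in the second.

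The level of the constitutive proteasome, the mean log2 CPM of its 31 subunits, ran from 5.26 in 537 through a median of 6.16 to 6.53 in 476, a 2.42-fold range. In the 17 animals of 2016 its mean and SD were 6.21 ± 0.194, and in the 21 animals of 2018 they were 6.03 ± 0.373. The 3 lowest animals were 537, Little_R and 558. Of 14 measures the cardiomyocyte list had the highest r with TMM library sizes, 0.84, with rho = 0.74. With plain totals its r was 0.81, against 0.92 for the muscle ubiquitin ligases FBXO32 and TRIM63. The regulators list and NFE2L1, both described below, had 0.87 and 0.83 with plain totals, and the mitochondrial share had −0.84. With orthologous exon totals the cardiomyocyte list had 0.59, against 0.73 for the ligases and −0.61 for the fibroblast list. The rho of the cardiomyocyte list was lower, 0.28 with plain totals and 0.35 with orthologous exon totals. Without the 2 animals farthest from the median of the list, its r was 0.59 with plain totals and 0.21 with orthologous exon totals. With TMM library sizes, its r within the years was 0.64 for 2016 and 0.88 for 2018. Without 537, Little_R, 558 and 4X0354 it was 0.70. Log2 total count had r of 0.54 with the constitutive level over 38 animals, 0.17 for 2016 and 0.54 without 537 and Little_R.

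The 2 muscle ubiquitin ligases, which tag muscle proteins for the proteasome, had r = 0.81 with the constitutive level, and r was 0.42 for 2016 and 0.85 for 2018. NFE2L1, the transcription factor that raises proteasome genes when proteasome activity falls, had r = 0.72 (0.30 for 2016, 0.82 for 2018, and 0.47 without 537, Little_R, 558 and 4X0354). A list of 6 regulators that includes NFE2L1 had r = 0.66, but −0.63 when the median of the list replaced the mean, so its direction depended on which genes set the level. The fibroblast and endothelial lists had r of −0.63 and −0.60 with TMM library sizes. With plain totals these were −0.30 and −0.027, and with orthologous exon totals −0.61 and −0.54. With TMM library sizes and without the 4 animals the fibroblast value was −0.45 and the endothelial value −0.23.

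Along the interferon-gamma list, 2 of 9 proteasome partners outside the rule were lower, where 12.9% of all genes were: UCHL5 (fell by 0.27 ± 0.0844), a deubiquitinase of the regulatory particle, and UBE3C (fell by 0.23 ± 0.0641), a ubiquitin ligase that binds it. POMP, the maturation factor of the core, had −0.11 ± 0.0658 and ADRM1, a ubiquitin receptor, −0.12 ± 0.0478, and neither was called. Of 6 regulators, NFE2L1 fell by 0.29 ± 0.0985 (adjusted p = 0.0325) and VCP, the segregase that feeds substrates to the proteasome, by 0.24 ± 0.0668 (adjusted p = 0.0122). NFE2L2 had −0.012 ± 0.0611. FBXO32 fell by 0.39 ± 0.123 and TRIM63 had −0.31 ± 0.146 with an adjusted p of 0.108. Over all genes, lower calls numbered 2133 in this test, but 19 without 537, Little_R, 558 and 4X0354 and 9 with the cardiomyocyte list as a term. RPS27A, which encodes ubiquitin fused to a ribosomal protein, had 0.058 ± 0.0577 and was not called.

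The mitochondrial share of counts was tested in the same way over 16399 genes with extraction year as a term. Per standard deviation of its log2 value, which was 0.417, 3 members were higher where 10.1% of all genes were called, and 10 were lower where 11.3% of all genes were called, with 21.5% called in either direction. PSMB10 (rose by 0.29 ± 0.0765), PSME2 (rose by 0.27 ± 0.0890) and PSMC3IP (rose by 0.22 ± 0.0720) were higher. The 5 lower genes with the smallest p were PSMD1 (fell by 0.30 ± 0.0801), PSMD11 (fell by 0.30 ± 0.0839), PSMF1 (fell by 0.20 ± 0.0568), PSMD4 (fell by 0.29 ± 0.0840) and PSMC6 (fell by 0.23 ± 0.0687). With plain library totals 40 members were lower, where 49.2% of all genes were called lower and the median of all genes was −0.23. In the animals of 2016 none was called in either direction by edgeR, where 0.15% of all genes were called higher and 0.38% lower. At an unadjusted p under 0.05, 4 members were higher and 3 lower in 2016. The constitutive median in 2016 was 0.081 with 4 of 31 below 0, against −0.11 with 30 of 31 below 0 over all animals. No member was called in either direction without 537, Little_R, 558 and 4X0354 (5 higher and 1 lower at an unadjusted p under 0.05). Of all genes 0.52% were called higher and 0.68% lower in that fit. Without 537 alone 2 members were higher and 2 lower, where 4.02% and 5.32% of all genes were. The immunoproteasome to constitutive ratio had r = 0.42 with the mitochondrial share over 38 animals, but −0.48 within 2016 and 0.66 within 2018, so the pooled value does not describe both years.

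Between extraction years, no proteasome gene was called at an adjusted p under 0.05 by edgeR, where 15.5% of 15480 genes tested were called and 3.51% were called lower in 2018. At an unadjusted p under 0.05, 6 members were lower and 0 were higher in 2018. DESeq2 called 4 members lower, where it called 6.24% of all genes lower. The smallest p belonged to PSMD12 (−0.25 ± 0.0914), PSMF1 (−0.29 ± 0.106) and PSMD1 (−0.40 ± 0.149), with adjusted p of 0.0565, 0.058 and 0.0584. The median difference of the 31 constitutive subunits was −0.12 on the log2 scale and moved to −0.0068 without 537, Little_R, 558 and 4X0354, all 4 of which were extracted in 2018. PSMB8, PSMB9 and PSMB10 were not called either, and their signs depended on few animals. Their differences were 0.35, 0.26 and 0.22 over all animals, and −0.20, −0.41 and 0.041 without those 4. With the mitochondrial share as a term they were −0.18, −0.25 and −0.061. Of 11 macrophage markers, 8 were lower in 2018 in the same test, and the part of these cells in the year differences was not tested.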

How the data were processed

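Libraries were made with the Illumina TruSeq v2 kit, which keeps no strand, and read as single ends. The authors aligned reads with STAR 2.6.1b (version from the submitters' processing notes) to Pan_tro_3.0 and counted them per Ensembl gene (strand setting not given in the sources used here), and the deposited counts are whole, not normalized counts for 38 animals. The deposited normalized matrix (a score for 37 animals, in which the authors scaled log CPM gene by gene and then quantile-normalized each animal) and deposited orthologous exon counts served as alternatives. 3 columns of values per sample that match no label, and the human table, were not used. Members were matched by the symbol paired with each gene identifier. Members and lists were chosen with earlier results of these data known. Extraction year came from the study's sample table. MX1, B2M, UBB, FCGR3B, HBA1 and PSMB11 of the lists were not analysed here, nor were promoter, protein or transcript sequences. Single values of some listed genes are not reported here.

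Log2 CPM used 0.5 counts as prior and TMM library sizes (edgeR 4.0.16, R 4.3.3). Dispersion was the residual of ln overdispersion from a LOESS trend (degree 1, span 0.75) over genes at 6 CPM in at least 1 animal. Correlations were Pearson's r and Spearman's rho. Tests were edgeR quasi-likelihood fits with filterByExpr on all genes and Benjamini-Hochberg adjustment at 0.05, and DESeq2 1.42.0 was an alternative. The SE beside an edgeR value was worked back from the test, as the absolute log2 value over the square root of its F statistic. The scripts were tested on simulated data. The closest pair by log2 CPM, 389 and 522, differed by 255 times the counting noise (chi-square per degree of freedom), and 554 and 554_2 by 278 times, so neither pair was counted as 1 library deposited more than once. Whether 554 and 554_2 share an animal was not tested, and each was kept as a sample. Named genes were all members, in each test the called ones (for over 10, those 5 per direction whose p was smallest), the listed genes and the 5 genes most like each branch. Libraries held 43892814 to 132478050 counts. The tests set each change against the spread between these animals, with no term for their relatedness.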

Additional observations from a re-analysis of the deposited data

How the results depend on the processing

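The 4 animals 537, Little_R, 558 and 4X0354, each of these animals and 529 alone, and the mitochondrial and cardiomyocyte terms were chosen as alternatives after seeing the data; where animals were left out, the standard deviation was taken anew. No paired analysis was possible because all animals form 1 group. For single genes and relations that are not the main ones, 399 values kept their direction and side of the threshold, 50 lost a call, 2 gained one, 123 moved and 18 reversed. The cause was not tested for any change given here.

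The median dispersion of the constitutive subunits (−0.61) was −0.38 with plain totals, −1.14 with orthologous exon totals, −0.72 with DESeq2 size factors, −0.79 in 2016, −0.41 in 2018 and −0.75 without the 4 animals. The dispersion of PSMB10 reversed to −0.48 with plain totals and −0.12 without the 4 animals, and that of PSME1 to 0.12 with orthologous exon totals, 0.60 in 2016 and 0.040 without the 4 animals. The correlation of the ratio with the interferon-gamma list (0.87) was 0.80 with plain totals, 0.91 with the median of the list, 0.91 in 2016, 0.93 in 2018, 0.79 in the deposited normalized matrix and 0.82 without the 2 farthest animals. That of the constitutive level with the cardiomyocyte list (0.84) was 0.59 with orthologous exon totals and in the deposited matrix, 0.75 with the median of the list, 0.64 in 2016, 0.70 without the 4 animals, and 0.73 without 537 and Little_R, which were also the 2 farthest. Against the mitochondrial share, the ratio (0.42) reversed to −0.48 in 2016 and −0.11 without the 4 animals, and the constitutive level (−0.46) to 0.41 in 2016. Against the regulators the constitutive level (0.66) reversed to −0.63 with the median of the list.

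Along the interferon-gamma list, the 22 members lower became 0 without the 4 animals, with plain totals, with the cardiomyocyte term and in 2016. Lower calls over all genes, 12.9% in the main fit, were 0.12%, 0.56%, 0.052% and 0.057% there. The 22 became 5 without 537, 14 without 558 and 9 without 537 and Little_R. Of all genes, 1.53%, 5.73% and 4.24% were called lower in these fits. The 4 higher became 2 in 2016, where 0.80% of all genes were called higher. PSMB10 reversed to −0.032 without the 4 animals and −0.10 in 2016. Along the mitochondrial share, the 10 lower became 0 without the 4 animals, without 537 and Little_R and in 2016. Lower calls over all genes were 0.68%, 3.70% and 0.38% there. The 10 became 2 without 537, 5 without 558, 40 with plain totals, 17 with no year term and 19 in 2018. Of all genes, 5.32%, 7.12%, 49.2%, 17.2% and 19.8% were called lower in these fits. The 3 higher became 0 without the 4 animals, with plain totals and in 2016, 1 without 537 and Little_R, 5 with DESeq2, with its size factors and with no year term, and 6 in 2018. In 2016, PSME2 reversed to −0.091, PSMD1 to 0.039, PSMD11 to 0.058, PSMF1 to 0.013, PSMD4 to 0.085 and PSMC6 to 0.085, and PSMC3IP reversed to −0.034 with plain totals. Plain totals moved the median of all genes to −0.23 per standard deviation of the mitochondrial share and to −0.20 between years. The members lower in 2018 (0) became 4 with DESeq2 or its size factors and 10 with plain totals. Of all genes, 6.24%, 4.76% and 8.89% were called lower in these fits. Depth limited PSMA8, at a median of 2.5 counts.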
